A study of Mus musculus with 6 samples.

Results

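T helper cells are known by the cytokines they make, and 10 cytokine genes were followed here in Th9 cells with and without the transcription factor IRF1. The genes were chosen by name, as Il9 and the cytokines usually measured beside it in T helper cells: Il2, Il3, Il4, Il5, Il10, Il13, Il21, Ifng and Csf2. They are 10 of the 41388 genes in the deposited table. The samples were 3 cultures from WT mice and 3 from Irf1-/- mice, all on the C57BL/6 background and 8 to 12 weeks old by the study's methods. The labels call them T lymphocytes from spleen and lymph nodes, taken by magnetic negative selection, and the methods call them naive CD4+ T cells. Cells of both genotypes were activated through CD3 and CD28 by the study's methods. Their cultures received IL-2, IL-4, TGF-β and IFN-γ, the last at 5 ng per ml, and were harvested after 2 days. By the general culture methods the added IFN-γ was the rat protein, and an antibody against mouse IFN-γ was in the medium of both genotypes. The comparison asks how the loss of IRF1 changes transcription in Th9 cells under IFN-γ.

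Th9 cells arise from naive CD4+ T cells under TGF-β and IL-4 and are known for IL-9, a growth factor for mast cells and a mediator of allergic airway inflammation. IFN-γ, the main cytokine of Th1 cells, induces IRF1, which binds interferon-stimulated response elements in DNA. The cytokines act on other cells through receptors at their surface, and a helper subset is named for the cytokines it releases.

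Values are normalized counts, that is, reads per gene after division by the size factor of each library. The libraries held 5639788 to 13348230 reads on genes, and those of replicate 3 were the largest in both genotypes. Reads on the 10 genes numbered 1015, 1163 and 2775 in WT and 2893, 2551 and 6563 in Irf1-/- replicates 1, 2 and 3. A count of 3 reads corresponded to 1.84 to 4.16. Irf1 itself had 2968, 2907 and 2660 in WT and 1780, 1729 and 1476 in Irf1-/- cultures, so transcripts counted on the gene stayed at 58.4% of the WT mean. The part of the gene that is deleted was not given in the sources used here. Y-linked transcripts summed to 2301 and 2306 in WT replicates 1 and 2 and to at most 11.1 in the other 4 libraries, which held Xist instead, so that this difference is partly confounded with genotype. The study's methods call the mice sex-matched, which these transcripts do not bear out. The 7 CD4 T cell markers summed to 15578 to 16075 in WT and 15333 to 15610 in Irf1-/- libraries. Of the myeloid markers, Lyz2 had 558.9 in Irf1-/- replicate 2 against 7.03 to 133.7 elsewhere, whereas Ctss and Mpeg1 were lower in all Irf1-/- libraries than in WT. In bulk RNA, fewer cells that make a cytokine and less RNA per cell cannot be told apart.

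The stretch of 250 bases before the transcription start is shown for 3 of the genes that differed between the genotypes, of which Il9 was higher and Il4 and Il2 were lower in Irf1-/- cells. Capitals mark matches to AANNGAAA, the core of an interferon-stimulated response element, read on either strand; a match on the reverse strand appears as TTTCNNTT. The sequences are from RefSeq on GRCm38.p6, 5′ to 3′ in the direction of the gene, and cover chr13:56482258-56482507 (-) for Il9, chr11:53618666-53618915 (-) for Il4 and chr3:37125955-37126204 (-) for Il2.
Il9: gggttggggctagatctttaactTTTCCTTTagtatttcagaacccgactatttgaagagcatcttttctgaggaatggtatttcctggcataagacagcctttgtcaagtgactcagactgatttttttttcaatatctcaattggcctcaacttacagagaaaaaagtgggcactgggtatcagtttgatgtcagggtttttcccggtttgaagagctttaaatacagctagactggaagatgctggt
Il4: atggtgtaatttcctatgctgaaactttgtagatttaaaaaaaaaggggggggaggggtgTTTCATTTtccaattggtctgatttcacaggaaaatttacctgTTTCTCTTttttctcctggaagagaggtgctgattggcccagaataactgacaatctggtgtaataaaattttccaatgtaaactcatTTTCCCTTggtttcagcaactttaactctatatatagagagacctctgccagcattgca
Il2: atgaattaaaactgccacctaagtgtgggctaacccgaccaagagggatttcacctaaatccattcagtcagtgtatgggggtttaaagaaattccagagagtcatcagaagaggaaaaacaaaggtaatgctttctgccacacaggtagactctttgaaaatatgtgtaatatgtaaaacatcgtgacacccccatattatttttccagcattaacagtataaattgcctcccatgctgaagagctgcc
The Il9 window held 1 match, from -227 to -220 relative to the start, and also the AP-1 motif TGANTCA from -140 to -134. The Il4 window shown held 3 matches to AANNGAAA, a second Il4 window at another start held 1, and the Il2 window held none. Over 32851 promoter windows of the same length, 21.3% held AANNGAAA, 6.75% held TGANTCA and 7.02% held the STAT motif TTCNNNGAA. Of the 9 cytokine genes with a window (10 windows, as Il4 has a pair), 5 held AANNGAAA (Il9, Il4, Il13, Il21 and Ifng), where the pair of matches in Il21 overlapped, and Ifng also held the STAT motif. A match is a run of letters and not a measured binding site. For Il9 the paper reports more: mutating motifs of this kind in the promoter abolished reporter activity driven by IRF4. It also found IRF1 and IRF4 at this promoter by chromatin immunoprecipitation. Il10 had no promoter entry.

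Of the 10 genes, 9 had a mean normalized count of at least 10 and were tested, with limma on log2(normalized count + 1). In Irf1-/- cells Il9 and Il10 were higher, Il2 and Il4 were lower, and Il3, Il5, Il13, Ifng and Csf2 did not pass an adjusted p of 0.05. The 4 calls are 44.4% of the 9 genes, beside 23.7% of all 11379 genes tested, of which 11.4% were higher and 12.4% lower. Il10 passed the filter only through Irf1-/- cells, with a mean of 3.06 in WT, and Il4 only through WT, with a mean of 9.31 in Irf1-/- cells, so the count of calls is a description. Without a filter both were called too, with adjusted p = 3.12e-04 for Il10 and 5.66e-04 for Il4 in limma. The same 4 genes were those whose values did not overlap between the genotypes, which held for 40.5% of all genes. The median log2 fold change was -0.13 over the 9 genes and close to 0 over all genes. Il21, with a mean under 10, was not tested.

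**Figure D1:**
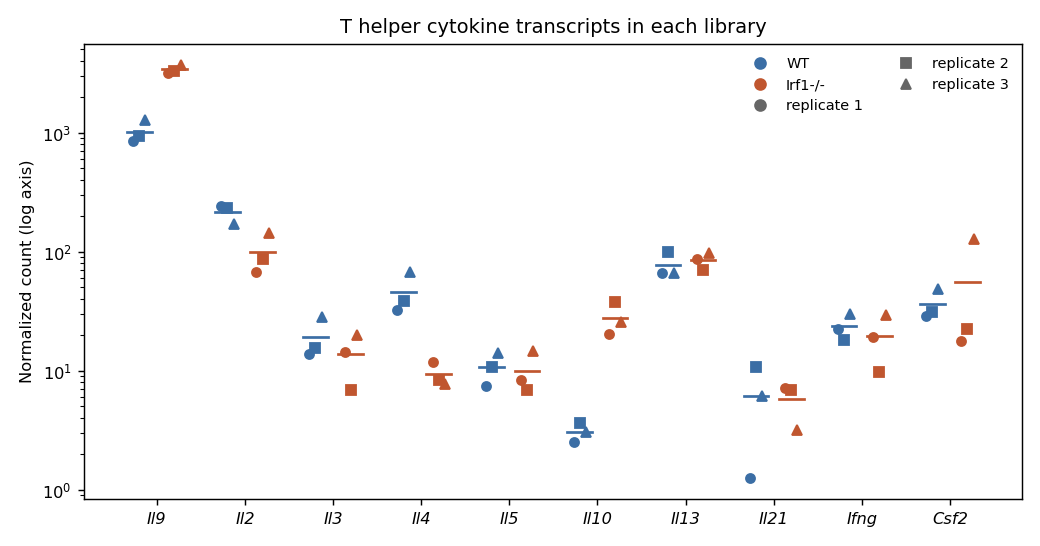
Normalized counts of the 10 cytokine genes on a log axis, with 1 point for each library, a different symbol for each replicate number and a bar at the mean of the 3 cultures of a genotype. Il9 lies above the other genes in every library and Il4 and Il10 change places between the genotypes, while the single high point of Csf2 in Irf1-/- cells is replicate 3.

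Il9, the cytokine that names the cells, had 852.4, 938.9 and 1272 normalized counts in WT replicates 1, 2 and 3. In Irf1-/- replicates 1, 2 and 3 it had 3201, 3283 and 3726. Every Irf1-/- culture thus lay above every WT culture, and the highest WT value was well under the lowest Irf1-/- value. The means were 1021 ± 222 (SD, n = 3) and 3403 ± 282 (SD, n = 3). The log2 fold change was 1.75 (standard error 0.124, 95% interval 1.48 to 2.03, limma's adjusted p = 9.25e-06, by Benjamini-Hochberg over all genes). The Irf1-/- mean was 333% of the WT mean, and 84 of the 11379 tested genes had a larger log2 fold change upward. Il9 (ENSMUSG00000021538) is at chr13:56479277-56482246 on the - strand of GRCm38. In the libraries with Xist only, with 1 WT culture left, the log2 fold change of Il9 was 1.42 (limma's adjusted p = 5.01e-05), and a fit with the Y-linked level added as a term gave 1.49.

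Il10, which encodes an anti-inflammatory cytokine made by many T helper subsets, rose from near the floor. Its normalized counts were 2.50, 3.61 and 3.07 in WT and 20.3, 37.4 and 25.6 in Irf1-/- cultures. The lowest Irf1-/- value was above all WT values, which came from 2, 3 and 5 reads. On the log2 scale it rose by 2.79 (standard error 0.367, 95% interval 1.98 to 3.60, limma's adjusted p = 4.98e-04). By reads, 10 in WT and 84 in Irf1-/- libraries, the ratio scaled by library was 8.77 with an exact 95% interval of 4.54 to 18.9, which covers counting error only. The size of the change depended on the constant added before the log, and was 1.51 with 10 in place of 1. Il10 (ENSMUSG00000016529) is at chr1:131019845-131024974 on the + strand. The highest Il10 value was in Irf1-/- replicate 2, the library with the high Lyz2. Without that library the log2 fold change was 2.56 (limma's adjusted p = 0.00593).

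**Figure D2:**
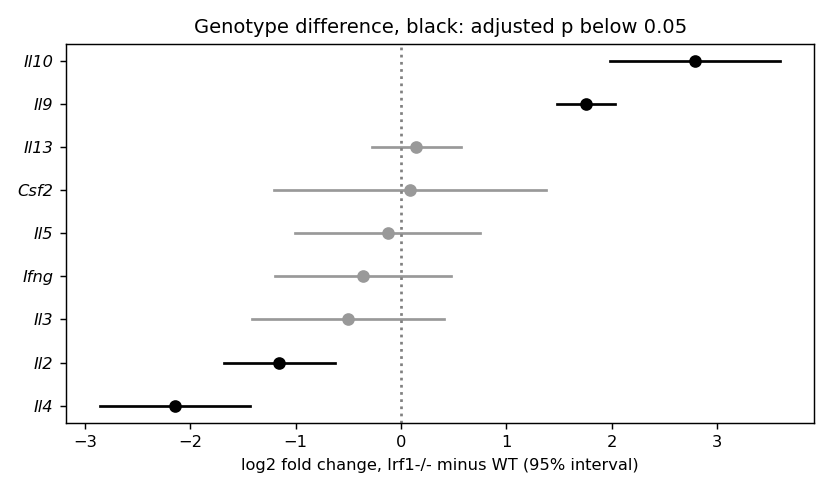
Difference of Irf1-/- from WT cells on the log2 scale for the 9 tested cytokine genes, with limma's 95% intervals from 3 cultures a genotype. The intervals of Il10, Il9, Il2 and Il4, in black, exclude 0, and that of Csf2 is the widest, from -1.21 to 1.38.

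Il4 encodes the cytokine that drives Th2 cells and is itself added to Th9 medium. Its transcript had 32.4, 38.5 and 67.6 normalized counts in WT and 11.9, 8.32 and 7.67 in Irf1-/- cultures. The lowest WT culture was thus above the highest Irf1-/- culture, and the genotypes were farthest apart in the larger libraries. Its log2 fold change was -2.15 (standard error 0.321, 95% interval -2.86 to -1.44, limma's adjusted p = 0.00113), which left 20.2% of the WT mean. The 168 WT reads stood against 28 in Irf1-/- libraries. The value was -1.73 within the 4 smaller libraries, where WT held Y-linked transcripts and Irf1-/- held Xist. It was -2.98 between the 2 larger ones, which both held Xist. Il4 (ENSMUSG00000000869) lies at chr11:53602982-53618669 on the - strand, 151 kb from Irf1.

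Il2 encodes the T cell growth factor that these cultures also received as a protein. Its transcript had 239.6, 230.8 and 169.7 normalized counts in WT and 68.1, 86.0 and 143.2 in Irf1-/- cultures. The genotypes did not overlap, but replicate 3 was the lowest in WT and the highest in Irf1-/- cells, so the gap was narrow there. The means were 213 ± 38.1 (SD, n = 3) and 99.1 ± 39.2 (SD, n = 3), which gave a log2 fold change of -1.15 (standard error 0.237, 95% interval -1.68 to -0.63, limma's adjusted p = 0.0062). It was -1.61 within the 4 smaller libraries and -0.24 between the 2 larger ones. Of the smaller libraries, the WT ones held Y-linked transcripts and the Irf1-/- ones Xist, whereas both larger ones held Xist. Library size and this difference cannot be told apart here. With the libraries holding Xist only, the value was -0.84 and did not pass the threshold (limma's adjusted p = 0.165). Il2 (ENSMUSG00000027720) is at chr3:37120523-37125959 on the - strand, and Adad1 overlaps it on the + strand.

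Among the cytokines that differed less, Il13, an effector cytokine of Th2 and Th9 cells in allergy, had 66.1, 99.8 and 65.8 normalized counts in WT and 86.0, 70.7 and 97.1 in Irf1-/- cultures. These values overlapped, and the difference on the log2 scale was 0.15 with a 95% interval of -0.28 to 0.57 (limma's adjusted p = 0.628). Il13 lies 135 kb from Irf1, next to Il4, whose 95% interval was -2.86 to -1.44. The difference between these neighbours was not tested. Il5, the growth factor of eosinophils, had 7.49 to 14.1 normalized counts in WT and 6.93 to 14.7 in Irf1-/- cultures. With 38 and 35 reads in all, its 95% interval was -1.01 to 0.75 on the log2 scale. Il5 is the member nearest to Irf1, at 44.9 kb. The chromosome 11 members besides Il4 are at chr11:53631324-53634702 (Il13), chr11:53720794-53725106 (Il5), chr11:54247271-54249667 (Csf2) and chr11:54265303-54267277 (Il3) of GRCm38.

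Csf2, which encodes GM-CSF, had 28.7, 31.3 and 48.6 normalized counts in WT and 17.9, 22.2 and 127.8 in Irf1-/- cultures. Irf1-/- replicates 1 and 2 were below all WT cultures and replicate 3 was above them all, so the genotypes overlapped. The log2 fold change was 0.08 with a 95% interval of -1.21 to 1.38 (limma's adjusted p = 0.939), and -0.79 without Irf1-/- replicate 3 (limma's adjusted p = 0.0741). Il3, its neighbour on chromosome 11 and like it a haematopoietic growth factor, had 13.7 to 28.3 normalized counts in WT and 6.93 to 19.8 in Irf1-/- cultures. Its log2 fold change of -0.50 had a 95% interval of -1.41 to 0.41 (limma's adjusted p = 0.418).

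Ifng, the Th1 cytokine, was present as transcript in cultures that also received IFN-γ as protein. It had 22.5, 18.0 and 30.1 normalized counts in WT and 19.1, 9.71 and 29.4 in Irf1-/- cultures, with overlapping ranges. Its log2 fold change was -0.36 with a 95% interval of -1.20 to 0.47 (limma's adjusted p = 0.53). Il21, the cytokine of follicular helper and Th17 cells, had 1.25, 10.8 and 6.15 in WT and 7.16, 6.93 and 3.20 in Irf1-/- cultures, from 20 and 16 reads. A difference in Il21 was not detectable at this depth. In both genotypes replicate 3 had the highest value of Il9, Il3, Il5, Ifng and Csf2, which is 5 of 10 members, beside 23.3% of all tested genes.

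Set per kilobase of exon, Il9 was the most abundant of the 10 transcripts in every culture. It had 1905 ± 414 (SD, n = 3) normalized counts per kilobase in WT cultures and 6349 ± 527 (SD, n = 3) in those without IRF1. Among 11327 genes ranked on this scale, Il9 was at place 96 in WT and at place 25 in Irf1-/- cells. In WT cells the order of the mean levels per kilobase was Il9, Il2 (187), Il13 (64.1), Csf2 (45.2), Il4 (37.6), Il3 (30.5), Ifng (18.2), Il5 (7.04), Il10 (2.33) and Il21 (1.15). From Il13 to Ifng, and between Il10 and Il21, neighbours in this order overlapped over the 3 cultures. In Irf1-/- cells the order was Il9, Il2 (86.6), Il13 (70.2), Csf2 (70.0), Il3 (21.8), Il10 (21.2), Ifng (15.0), Il4 (7.59), Il5 (6.50) and Il21 (1.10). There all neighbours from Il2 to Il5 overlapped. Il4 thus moved from the place after Csf2 to the place after Ifng, and Il10 from the place before Il21 to the place after Il3.

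Within each library, the share of Il9 shows how the cytokine transcripts were made up. Of the normalized counts on the 10 genes, Il9 took 67.3%, 67.2% and 74.6% in WT and 92.7%, 92.8% and 88.8% in Irf1-/- cultures. The genotypes did not overlap. The means were 69.7% ± 4.26 (SD, n = 3) and 91.4% ± 2.25 (SD, n = 3), a difference of 21.8 percentage points. The exact permutation test, two-sided, gave p = 0.1, the smallest that 3 against 3 allow. The share of Il2 was 18.9%, 16.5% and 9.95% in WT and 1.97%, 2.43% and 3.41% in Irf1-/- cultures. The sum of the other 9 genes was 436 ± 22.5 (SD, n = 3) in WT cultures and 326 ± 124 (SD, n = 3) in those without IRF1 and overlapped between them (exact two-sided permutation p = 0.4). Il9 itself had 3534 reads in WT and 10878 in Irf1-/- libraries.

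**Figure D3:**
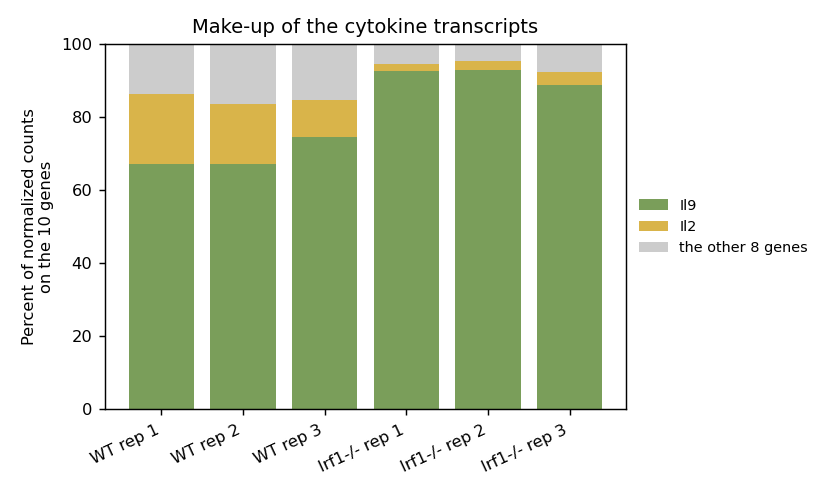
Percent of the normalized counts on the 10 cytokine genes that fell on Il9, on Il2 and on the other 8 genes in each library, as stacked bars from 0 to 100. Il9 takes 67.2% to 74.6% of the bar in WT and 88.8% to 92.8% in Irf1-/- cultures.

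Whether Il9 changed by another amount than the other cytokine genes was tested on the log2 ratio of Il9 to each gene in the same library. The ratio of Il9 to Il4 was 4.67, 4.57 and 4.21 in WT and 7.95, 8.46 and 8.75 in Irf1-/- cultures, a difference of 3.90 on the log2 scale. The ratio to Il2 was 1.83, 2.02 and 2.90 in WT and 5.54, 5.24 and 4.69 in Irf1-/- cultures, a difference of 2.91. For neither gene did the genotypes overlap. The ratio also rose against Il3 (2.25), Ifng (2.12), Il5 (1.88) and Il13 (1.61), with no overlap between the genotypes. Against the untested Il21 the difference was 1.58. For these 7 genes and for Il10 the exact two-sided permutation p was 0.1.

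Il10 was the exception in direction. The log2 ratio of Il9 to Il10 was 7.93, 7.67 and 8.29 in WT and 7.23, 6.42 and 7.13 in Irf1-/- cultures, lower by 1.04 (95% interval of the difference -2.01 to -0.066, limma's adjusted p = 0.0372). It lost its call in 7 of the 15 alternatives with a test. Among these were WT replicate 3 (limma's adjusted p = 0.0614) and Irf1-/- replicates 1 (0.0506), 2 (0.205) and 3 (0.055), each left out in turn. With 0.1 added before the log in place of 1, the difference was -1.36 (limma's adjusted p = 0.0168). With 10 added it was 0.24 (limma's adjusted p = 0.461). The ratio of Il9 to Csf2 overlapped between the genotypes, with 4.68 to 4.86 in WT and 4.85 to 7.40 in Irf1-/- cultures (exact two-sided permutation p = 0.2). In limma all 8 tested ratios passed, as did 97.8% of all 11378 genes set against Il9, so that passing says little about a cytokine gene. All ratios share the values of Il9, which makes these p-values too small, and without pooling the variance over genes, a choice made after seeing the data, 7 of 8 passed and Csf2 did not (adjusted p = 0.111).

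The genes whose pattern over the 6 libraries was most like that of Il9 were sought among 8224 genes with a mean of at least 100. Likeness was the mean absolute difference of the log2 values, each centred on its own mean. The nearest were Tent5a (0.0814), a poly(A) polymerase gene, Nupr1 (0.0831), Ndrg1 (0.0874), the metallothionein gene Mt1 (0.113) and Cyp11a1 (0.127), which encodes the enzyme of the first step of steroid synthesis. Tent5a had a mean of 471 ± 164 (SD, n = 3) in WT cultures and 1519 ± 143 (SD, n = 3) in those without IRF1. For Cyp11a1 the means were 90.8 ± 13.0 (SD, n = 3) and 365 ± 13.9 (SD, n = 3). Genes chosen by likeness to Il9 in these same libraries had to rise as Il9 did. Of the cytokine members Il10 was the nearest at 0.519, followed by Il13 at 0.804, and Il4 was the farthest at 1.95.

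Beside the members, 4 lists of related genes were described. Of 27 other T cell cytokine genes, 15 were tested, and 5 were higher and 2 lower in Irf1-/- cells, which is 46.7%, beside 23.7% of all genes tested. Il12a, a subunit of IL-12 and IL-35, fell most, from 441 ± 55.1 (SD, n = 3) to 33.7 ± 4.88 (SD, n = 3), with a log2 fold change of -3.67 (limma's adjusted p = 9.28e-08). Tnfsf11, which encodes RANKL, fell by 0.57. Lta, the gene of lymphotoxin alpha, rose by 0.74, Il1a by 0.79 and the IL-1 receptor antagonist gene Il1rn by 0.86 on the log2 scale. Il24 (1.04) lost its call in 6 and Il16 (0.25) in 14 of 19 alternatives. The median of the list was 0.26. Il1b, at 251 in Irf1-/- replicate 2 and at most 12.1 elsewhere, did not pass (limma's adjusted p = 0.141), and that library also held the high Lyz2.

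**Figure D4:**
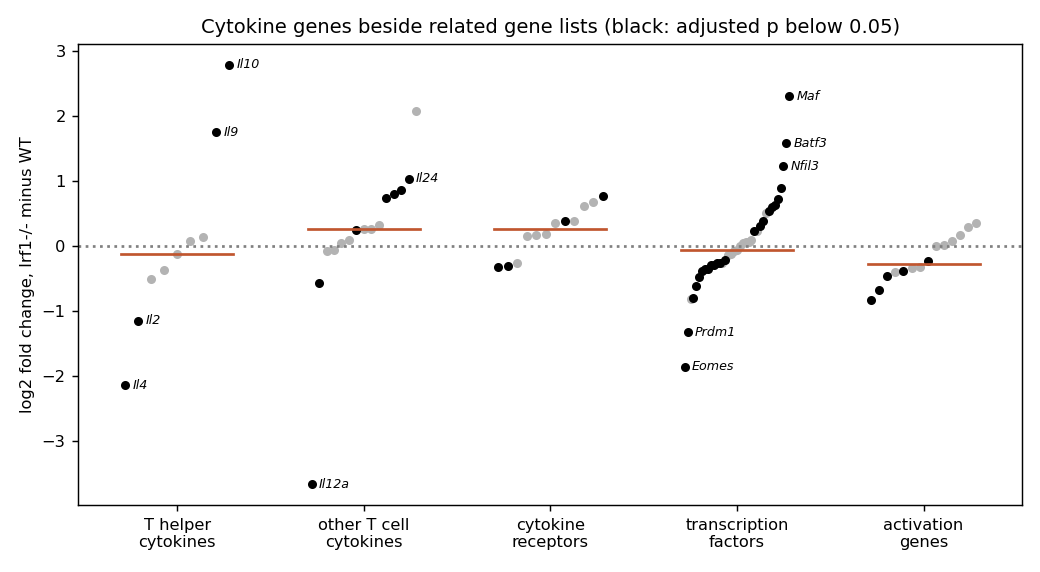
Difference of Irf1-/- from WT cells on the log2 scale for each tested gene of the cytokine members and of 4 related lists, sorted within a list, with black points for an adjusted p below 0.05 in limma and a bar at the median. Il10 at 2.79 and Il12a at -3.67 are the extremes, and the activation genes have black points below 0 alone.

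Of 17 receptor genes for these cytokines, 12 were tested, 2 were higher and 2 lower, and the median was 0.27. The called share was 33.3%, beside 23.7% of all genes tested. The IL-4 receptor chain gene Il4ra rose by 0.77, from 1710.5 to 2890.3 normalized counts, and Il2rb, a chain of the IL-2 receptor, by 0.38. The shared chain gene Il2rg (-0.32) and Il21r (-0.30) were the lower ones. None of these 4 calls held in all 19 alternatives, and that of Il2rb was lost in 8. Il9r, the receptor of IL-9, had 8.79 ± 1.76 (SD, n = 3) in WT cultures and 14.3 ± 4.33 (SD, n = 3) in those without IRF1 and did not pass (limma's adjusted p = 0.243), nor did Il2ra (0.18, limma's adjusted p = 0.228).

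Of 38 genes of transcription factors that act on helper cytokine genes, 37 were tested, 11 were higher and 13 lower, with a median of -0.06. The called share was 64.9%, beside 23.7% of all genes tested. Maf, which encodes a known activator of Il4 and Il10, had 79.9, 61.3 and 54.1 normalized counts in WT and 393, 322 and 263 in Irf1-/- cultures. Its log2 fold change of 2.31 (limma's adjusted p = 1.52e-05) was the largest rise of the list, while Il10 was higher and Il4 lower. Batf3 rose by 1.58, Nfil3 by 1.23, Foxp3, the factor of regulatory T cells, by 0.89, Id2 by 0.73 and the AP-1 family gene Batf, an activator of Il9, by 0.38. Smad3, which carries the TGF-β signal, rose by 0.64, and Rora, Ikzf3, Nfatc2 and Runx3 by 0.23 to 0.60. The log2 fold change was -1.86 for Eomes, -1.33 for Prdm1, -0.80 for Bcl6, -0.61 for the NF-κB subunit gene Rel and -0.48 for Bhlhe40. Prdm1, with a mean of 14.7 in WT and 5.37 in Irf1-/- cells, passed the filter only through WT and lost its call in 10 of 18 alternatives. Among the others, Stat3, Tbx21 (the Th1 factor), Irf8, Ikzf1, Smad2, Runx1 and Stat5a lay between -0.38 and -0.22. Of these 24 calls, 11 were lost when a single library was left out and 7 held in all 19 alternatives, namely Maf, Batf3, Nfil3, Foxp3, Id2, Rel and Stat3. Irf4, required for Th9 cells, had a log2 fold change of 0.23 (limma's adjusted p = 0.0602), and Gata3, the Th2 factor, had 0.06 (limma's adjusted p = 0.769).

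Of 14 T cell activation genes, 5 (35.7%) were lower and none was higher, with a median of -0.28. Over all genes tested, 12.4% were lower and 11.4% higher. The log2 fold change was -0.83 for Nr4a3, induced by signals of the T cell receptor, -0.67 for Cd44, -0.47 for Cd69, -0.38 for the transferrin receptor gene Tfrc and -0.23 for Egr2. The fall of Egr2 lost its call in 7 of 19 alternatives. Over these alternatives the number of activation genes called, in either direction, ranged from 3 to 11. Il2 was lower in the same libraries, and the part of activation in that was not tested.

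Other cell types were looked for by their markers. The 5 mast cell and basophil markers summed to 12.3 to 22.5 normalized counts in WT and 21.1 to 29.8 in Irf1-/- libraries, mostly from Kit, with Fcer1a and Ms4a2 at 0. The 5 NK markers summed to 4.81 to 8.61 and 6.93 to 9.55, with Ncr1 and Klrb1c at 0. The pair of CD8 markers summed to 32.4 to 41.2 and 20.3 to 30.7. The 6 B cell markers summed to 611.5 to 827 and 449 to 536, nearly all Ighm, with Ms4a1 at 4.16 or less and Pax5 at 0. The 10 myeloid markers summed to 621 to 828 in WT and 288 to 1373 in Irf1-/- libraries, and their members moved in opposite directions. Ctss, the largest part of the WT sums, fell from 525 ± 40.7 (SD, n = 3) to 253 ± 25.2 (SD, n = 3, limma's adjusted p = 4.69e-05) and Mpeg1 from 93.7 to 45.9 (limma's adjusted p = 0.0367). Lyz2, Cd14 and Itgam were highest in Irf1-/- replicate 2 and did not pass. Il9 in that library was between the other Irf1-/- cultures. Without that library Il9 had a log2 fold change of 1.78 (limma's adjusted p = 2.49e-04).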

How the data were processed

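RNA-Seq libraries of poly(A) RNA from 3 WT and 3 Irf1-/- Th9 cultures were compared. Per the submitters' processing notes and the study's methods, alignment used STAR 2.4.0b and GRCm38, counting used featureCounts with Ensembl genes, and testing used DESeq2 1.12.3. The authors deposited a signal, here called normalized count, which is reads over the library's size factor. Multiplied back, 100% of the values above 0 were whole reads to within 0.01. Strand and multiply mapped reads were not given in the sources used here. Another gene overlaps 5 of the 10 members in GENCODE M21, and none of those genes passed the filter. The study describes the 3 samples of a genotype as independent biological samples and the labels do not tie them to separate mice, so p-values measure the spread between these samples.

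Genes with a mean of at least 10 entered a fit with limma 3.58.1 under R 4.3.3 (eBayes with a trend, log2 of the normalized count plus 1, Benjamini-Hochberg adjustment, threshold 0.05), since the unit is not a raw count. Fold changes on this scale understate those of low genes. Count models on the recovered reads (edgeR 4.0.16, DESeq2 1.42.0), other pseudocounts (0.1 and 10), filters, scalings, covariates and sample subsets were alternatives. All members are named, the list genes past the threshold, marker genes a result turns on, and the 5 genes nearest to Il9. Lengths came from GENCODE M21, a later release than that used for counting. The members and lists were chosen with earlier results of these data known. Intervals and floors from reads cover counting error only. A few list and marker genes are not reported here by name.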

Additional observations from a re-analysis of the deposited data

How the results depend on the processing

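Il9, Il10 and Il4 kept their direction and stayed past the threshold in each alternative that tested them, with log2 fold changes of 1.42 to 1.92, 1.51 to 3.18 and -2.76 to -1.50, and the pair of larger libraries, with no test, gave -2.98 for Il4. Where a mean of at least 50 was required, 2 of the members were called, since only Il9, Il2 and Il13 were tested, and Il9 differed from the other 2. The gene lists had 40 calls, 25 without a trend and 14 with the libraries holding Xist only, where 1 WT culture is left and is assumed to vary like the others. There Il2 lost its call, and the share of Il9 differed by 16.8 percentage points, against 14.2 in the pair of larger libraries. Some values that did not pass changed sign. The log2 fold change of Csf2 was -0.043 after quantile normalization, -0.06 and -0.79 without WT replicate 1 and Irf1-/- replicate 3, -0.56 in the 4 smaller libraries, -0.37 with Xist only and -0.49 with a covariate for the Y-linked level, but up to 0.59 with 1 library left out, 0.64 in DESeq2, 0.72 in edgeR and 1.38 in the pair of larger libraries. With 1 library left out, Il5 ranged from -0.42 to 0.076 and Ifng from -0.71 to 0.040, both above 0 without Irf1-/- replicate 2 and Il5 also without WT replicate 3 (0.071). Il13 was -0.059 in the 4 smaller libraries. The difference of Il9 and Il10 was 0.24 with 10 added. The cause was not tested.

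Over all genes, 1293 were higher and 1406 lower. There were 807 lower without a trend, 808 higher and 829 lower without WT replicate 1, 799 and 826 without WT replicate 2, 820 and 895 without Irf1-/- replicate 2, and 392 in each direction with Xist only. Libraries of a number correlated in their deviations with r of 0.0922, 0.269 and 0.321, and 6 of 6 correlated best with their own number. The labels do not say what libraries of a number share, and the main fit used no replicate block. With the replicate number as a block, 4 members, 54 list genes, 1893 higher and 2116 lower genes were called, the log2 fold change of Il9 was 1.75, its share differed by 21.8 points, and no member's call changed. Depth limits Il21, Il5 and Il10 in WT cells, each with 38 reads or fewer.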
